A study of Danio rerio with 9 samples.

Results

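Cytosolic ribosomal proteins are the proteins that, with ribosomal RNA, make up the ribosomes of the cytoplasm, and their genes are described here across all 9 libraries of a zebrafish (Danio rerio) RNA-seq series. The members are the rows of the count table whose names start with rpl or rps and a digit, with rplp or with rpsa, leaving out kinase and binding-protein genes that share those prefixes. This rule, which uses names only, found 82 of the 28802 rows, 35 for the small subunit and 47 for the large subunit. Of these names, 81 are symbols in the RefSeq gene list used for names, and the remaining one, rplp2l, stands there as a synonym. The libraries came from whole larvae at 8 days post fertilization, with total RNA of 7 larvae pooled per library and 3 libraries per genotype. Single mutants carried stl700, an allele of fam177a1a, in the homozygous state. Double mutants were homozygous both for stl700 and for stl746, an allele of fam177a1b. The third genotype was wild type, given in the column headers by the name of the AB laboratory line. The series title ties loss of FAM177A1, a human Golgi protein, to a neurodevelopmental disorder. The labels do not say whether libraries of a genotype came from separate clutches, so p-values measure only the spread between these samples, which may be technical. Whole larvae hold every tissue, so fewer cells of a type and less RNA per cell cannot be told apart.

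The small subunit of the ribosome reads the mRNA, and the large subunit joins amino acids and carries the tunnel through which the new chain leaves. Most of these proteins are needed at about the same molar amount, and unassembled copies are degraded in the cells studied so far. In mammals the mRNAs of ribosomal proteins start with a terminal oligopyrimidine (TOP) tract, through which the kinase mTOR and the RNA-binding protein LARP1 control their translation together. Heterozygous loss of several of these genes in humans causes Diamond-Blackfan anaemia, and loss in zebrafish embryos commonly activates p53. The counts below are of mRNA only.

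Libraries held 16978591 to 24717581 counts on genes, and at these depths 3 counts in a library correspond to 0.121 to 0.178 CPM, the unit of level used below, in which counts are set against library totals scaled with TMM factors. The row fam177a1 had 8, 14 and 11 counts in single mutants, then 15, 9 and 8 counts in double mutants, against 669, 490 and 487 counts in wild type. Its log2 fold change was -5.29 in single mutants and -5.39 in double mutants. The table does not tie this row to fam177a1a, to fam177a1b or to both, so it does not tell the double mutants from the single mutants. No pair of libraries within a genotype agreed within sampling noise over all genes (chi-square per degree of freedom 3.35 to 21.5). A pair of libraries needs naming before the results. Wild-type replicate 3 was low in nearly every ribosomal protein gene, and single-mutant replicate 1 lay apart from the other single mutants over all genes, at 7.51 on the second principal component against -25.6 and -28.7.

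Summed over all 82 rows, ribosomal protein mRNAs took 6.003% to 6.97% of all counts over the 9 libraries. The share was 6.48%, 6.13% and 6.34% in single mutants (mean 6.32% ± 0.179, SD, n = 3). In double mutants it was 6.19%, 6.26% and 6.24% (6.23% ± 0.0342, n = 3). Wild-type libraries had 6.97%, 6.73% and 6.003% (6.57% ± 0.505, n = 3). Both mutant ranges lie inside the wild-type range, whose highest library stands 1.16 times over its lowest. The difference in means from wild type was -0.249 percentage points in single mutants and -0.339 percentage points in double mutants, and -0.0895 percentage points for double against single mutants. Exact two-sided permutation tests over libraries gave p = 0.5, 0.4 and 0.5 for these 3 differences (0.5 each after Benjamini-Hochberg adjustment), and 3 libraries against 3 cannot give a p below 0.1. Small-subunit genes took 2.56% ± 0.0656 of counts in single mutants, 2.53% ± 0.0162 in double mutants and 2.68% ± 0.216 in wild type. Large-subunit genes took 3.76% ± 0.114 in single mutants, 3.697% ± 0.0180 in double mutants and 3.89% ± 0.289 in wild type. Each subunit thus kept the same order of means as the sum.

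**Figure D1:**
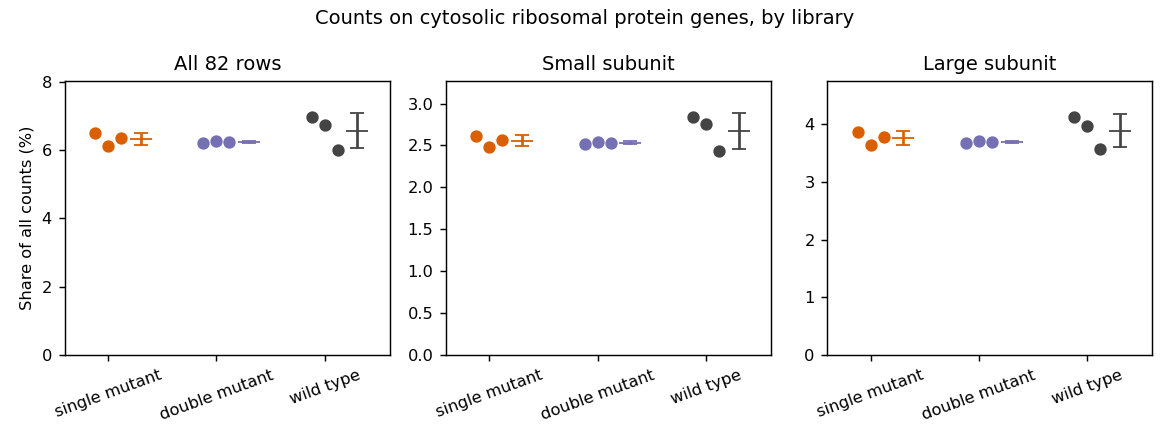
Share of all counts (%, linear axis from 0) that fell on all 82 ribosomal protein rows, on the small-subunit rows and on the large-subunit rows. Points are libraries and bars are the mean ± SD of 3 libraries. The mutant libraries lie between 6.13% and 6.48% for all rows, inside the wild-type range of 6.003% to 6.97%.

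The spread between libraries was widest in wild type. The median SD of log2 CPM over the 81 rows tested was 0.0453 in single mutants, 0.0209 in double mutants and 0.141 in wild type. Of those 81 rows, 80 were higher in wild-type replicate 1 than in wild-type replicate 3, and in 72 of them replicate 2 lay between replicates 1 and 3. The median log2 difference between replicates 1 and 3 was 0.26 for ribosomal protein genes, against 0.01 for all genes tested. The row that did not share this difference was rpl7l1, with 57.4, 55.3 and 57.9 CPM in wild type. A component analysis of log2 CPM over the 81 rows gave 46.9% of the variance to a first axis, on which single mutants lay from -0.715 to -0.657, double mutants from -0.323 to -0.172 and wild type from 0.810 to 1.09. The second axis, with 41.3%, spread wild type from -1.31 to 1.19, while the 6 mutant libraries lay between -0.340 and 0.429. Wild-type replicates 1, 2 and 3 had 24717581, 18297048 and 21085943 counts, and the part of depth in this spread was not tested.

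**Figure D2:**
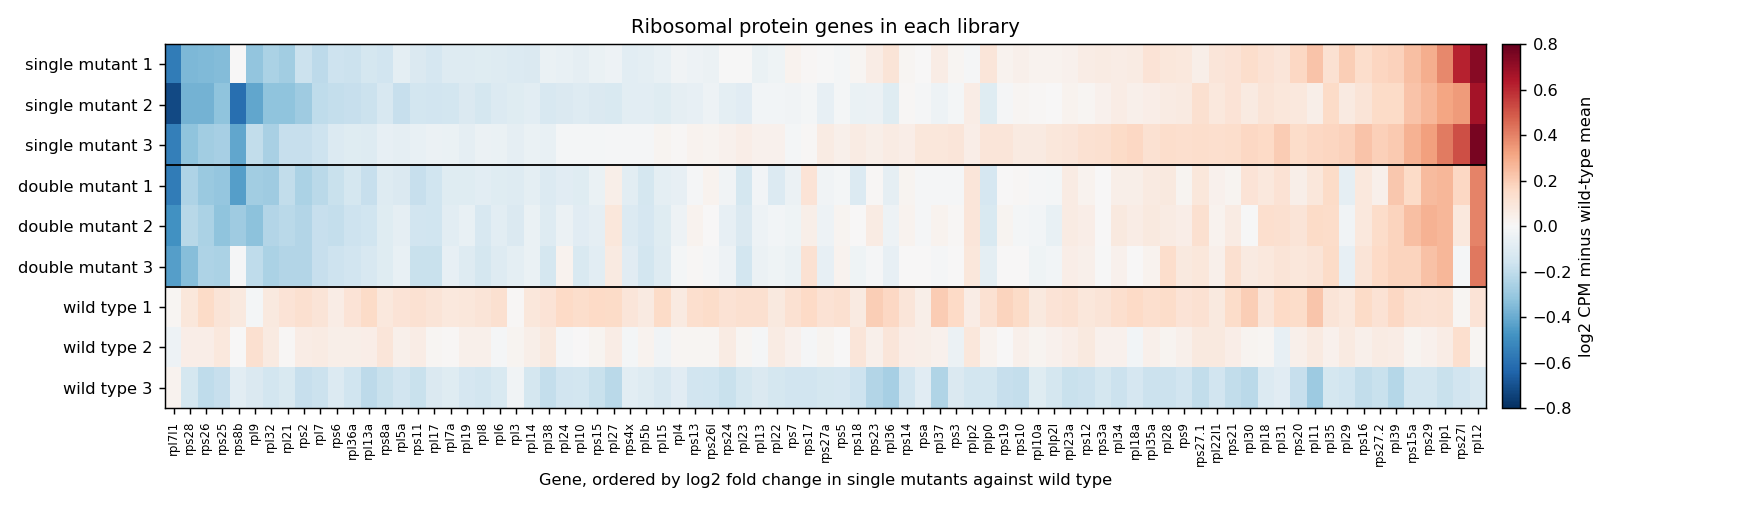
Log2 CPM of each tested ribosomal protein gene in each library, as the difference from its wild-type mean (colour scale, log2 units). Rows are the 9 libraries and columns the 81 genes, ordered by log2 fold change in single mutants. Wild-type replicate 3 is below the wild-type mean in 80 genes, while few genes at either end set all 6 mutant libraries apart from wild type.

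Levels differed among members far more than between genotypes. CPM divided by the listed gene length in kilobases, averaged over 9 libraries, was highest for rplp0 (2428), the scaffold of the ribosomal stalk. Next came rpl6 (1682), rps20 (1639), rps14 (1460) and rps2 (1405). At the low end stood rps8b (4.87), rpl9 (20.8), rpl7l1 (24.1), rps27l (31.8) and rpl37 (62.4). The length listed for rpl37 is 7408 bases, which is long for a short mRNA and lowers its per-length level. Other listed lengths are long too, such as 4959 bases for rps9 and 4848 bases for rpsa. The row rpsa stood at 444 per kilobase, although its libraries held 35787 to 54813 counts. The order above therefore depends on the listed lengths and is not an order of mRNA amounts. One member, rpl26, was not tested, because its 2, 2 and 1 counts in single mutants and 2, 2 and 2 counts in double mutants, against 12, 5 and 7 counts in wild type, did not pass the filter on low counts. How reads that match several places were counted is not given in the sources used here, and the genome was not searched for further copies of these genes. The levels of rpl9 and rpl26, and those of close relatives such as rps26 and rps26l, are therefore uncertain.

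The single mutants were set against wild type to find genes that differ in larvae homozygous for the fam177a1a allele. Of the 81 ribosomal protein genes tested, 5 rose and 10 fell at an adjusted p under 0.05 (edgeR's quasi-likelihood test with Benjamini-Hochberg adjustment over all 21694 genes tested), which is 18.5% of them. Over all tested genes 42% were called, 19.5% higher and 22.6% lower. Among the 315 other rows with a mean of at least 297 CPM, the 10th percentile of the members, 51.7% were called. This set has no upper limit of level. The genes that rose were rpl12, rps27l, rplp1, rps29 and rps15a, and those that fell were rpl7l1, rps28, rps26, rps25, rpl9, rpl32, rpl21, rps2, rpl7 and rps6. The median log2 fold change of the members was -0.0046, against -0.0064 for all genes, and its SD over genes was 0.183, against 0.763. Only rpl12 and rpl7l1 moved by more than 1.5 fold, whereas 26.1% of all tested genes did. The CPM ranges of the genotypes did not overlap for 18 members, 22.2% of them, against 49% of all genes. Without wild-type replicate 3 the count was 28 members, 5 higher and 23 lower, and without wild-type replicate 1 it was 25, 20 higher and 5 lower. With each of the 9 libraries left out in turn, all genes called numbered 7327 to 10363, against 9116 in the main fit. The balance of higher and lower calls among members also shifted with the scaling, to 7 and 7 when the ribosomal protein rows were left out of the TMM factors. Members with the highest log2 fold changes that were not called included rpl39 (0.17, edgeR adjusted p = 0.1004) and rps27.2 (0.17, adjusted p = 0.0897), and at the low end rps8b (-0.32, adjusted p = 0.156).

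Double mutants, homozygous for both alleles, were set against the same wild-type libraries. Here 4 members rose and 10 fell, 17.3% of those tested, where 32.2% of all genes were called, 14.2% higher and 18% lower. These 14 are the genes listed above other than rps27l, each in the same direction, but the comparisons share their wild-type libraries, so they are not independent. The median log2 fold change was -0.04 (all genes -0.01), with an SD over genes of 0.141 against 0.718. No member moved by more than 1.5 fold, against 20.1% of all tested genes. Ranges did not overlap for 20 members, against 50.1% of all genes. The count was 27 without wild-type replicate 3 (3 higher, 24 lower) and 7 without wild-type replicate 2. It was 6 without double-mutant replicate 1 or 3, and 7 without double-mutant replicate 2. Without wild-type replicate 1 it was 11, with 8 higher and 3 lower. With each of the 9 libraries left out in turn, all genes called numbered 5230 to 8697, against 6990 in the main fit.

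**Figure D3:**
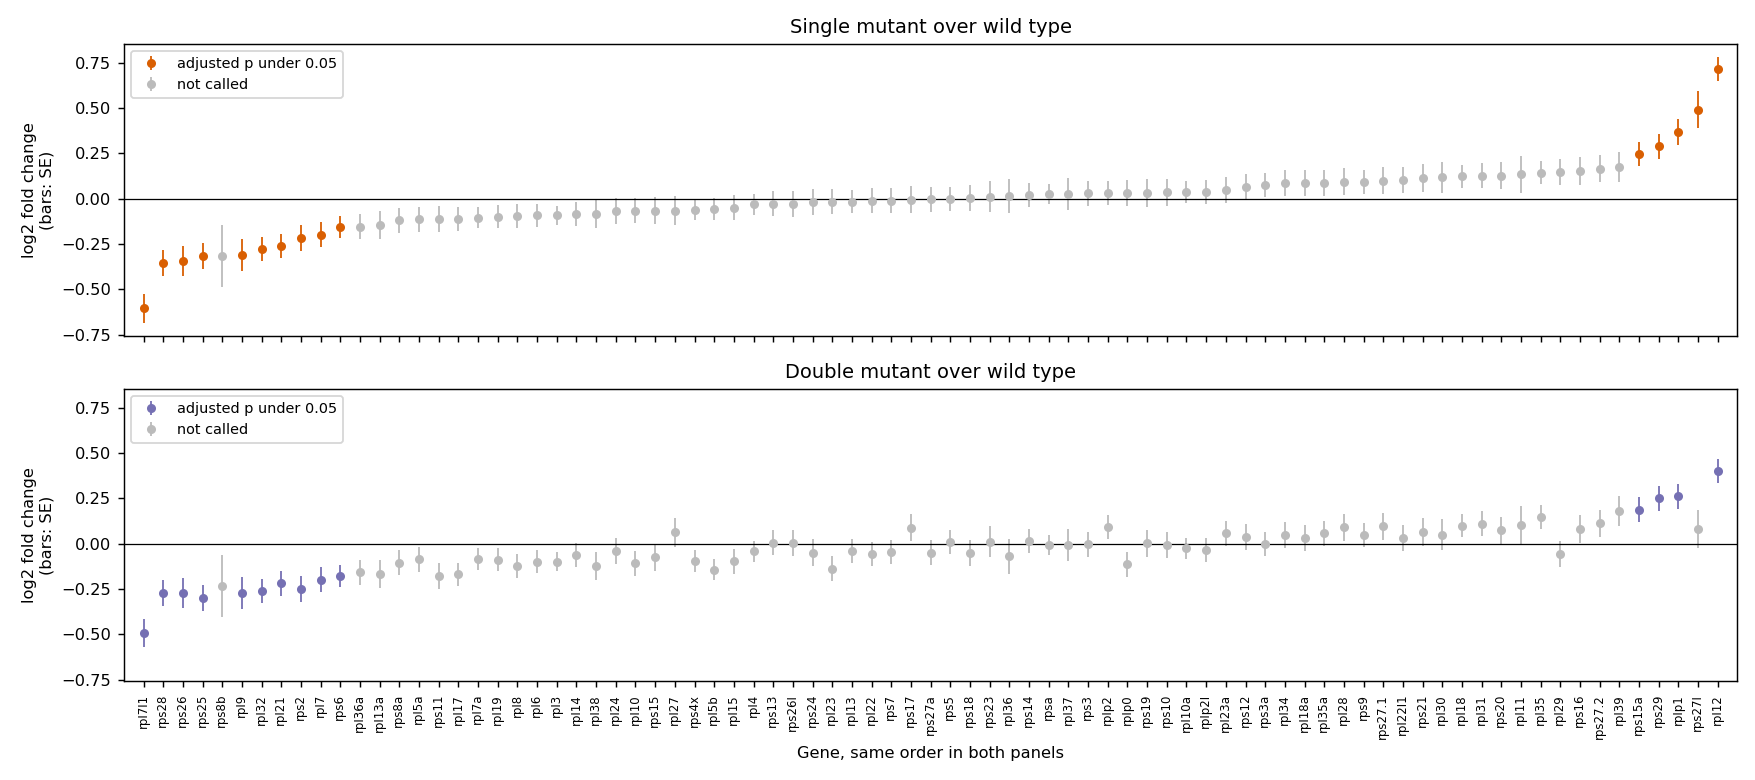
Log2 fold change of each tested ribosomal protein gene over wild type, single mutants above and double mutants below, with bars of 1 standard error. Coloured points had an edgeR adjusted p under 0.05 (15 and 14 genes). Both panels keep the order of the single mutants. Most genes lie near 0, with rpl12 at the high end and rpl7l1 at the low end of both panels.

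The stalk of the large subunit binds the translation factors that hydrolyse GTP. Of its 5 rows, 2 rose in both mutants and none fell, where 19.5% of all tested genes were higher in single mutants and 14.2% in double mutants. Members were assigned to this and the other structural groups below after their values were seen. The group counts are therefore a description and do not test a pattern by place in the ribosome. rpl12, which sits at the base of the stalk beside the site that stimulates those factors, had 1175, 1126 and 1199 CPM in single mutants, 932, 935 and 951 CPM in double mutants and 766, 718 and 648 CPM in wild type. The 3 genotypes do not overlap, and double mutants lie between the others. Its log2 fold change was 0.71 in single mutants (SE 0.07, edgeR adjusted p = 1.24e-06) and 0.40 in double mutants (SE 0.06, adjusted p = 0.000266). rplp1, an acidic protein of the stalk's flexible arm, had 1549, 1478 and 1587 CPM in single mutants, 1431, 1428 and 1431 CPM in double mutants and 1290.3, 1236 and 1052 CPM in wild type. Every mutant library was above every wild-type library, with log2 fold changes of 0.37 (SE 0.07, adjusted p = 0.000655) and 0.26 (SE 0.07, adjusted p = 0.00940). The partner of rplp1 in the arm is P2, from the rows rplp2 and rplp2l, whose log2 fold changes in single mutants were 0.03 and 0.04 with no call. rplp0, which anchors both, had 2965 ± 221 CPM in single mutants, 2679 ± 54.9 CPM in double mutants and 2902 ± 268 CPM in wild type (SD, n = 3 each), with no call. Both calls of rpl12 and of rplp1 held in all 19 alternative settings.

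In the rest of the large subunit, apart from the stalk, the exit tunnel and the proteins that carry 5S RNA, 5 of 31 rows fell in each mutant and none rose. These are 16.1% of the rows, below the 22.6% of all tested genes that were lower in single mutants and the 18% in double mutants. The gene with the lowest log2 fold change was rpl7l1, a relative of rpl7 whose yeast counterpart Rlp7 acts in ribosome assembly rather than in the finished ribosome. It had 38.6, 34.5 and 38.9 CPM in single mutants and 38.6, 40.7 and 41.9 CPM in double mutants, against the wild-type values above. All mutant libraries were below all wild-type libraries, with log2 fold changes of -0.61 (SE 0.08, adjusted p = 3.17e-05) and -0.49 (SE 0.08, adjusted p = 0.000262). rpl32 had 576, 549 and 574 CPM in single mutants, 562, 582 and 576 CPM in double mutants and 722, 721 and 619 CPM in wild type. Its ranges did not overlap, and its log2 fold changes were -0.28 (adjusted p = 0.00348) and -0.26 (adjusted p = 0.00733), the second call being lost without double-mutant replicate 1 (adjusted p = 0.0598). rpl21 had 609, 592 and 650.2 CPM in single mutants, 644, 636 and 628 CPM in double mutants and 797, 744 and 679.8 CPM in wild type, again without overlap. Its log2 fold changes were -0.26 (adjusted p = 0.00522) and -0.22 (adjusted p = 0.0194). The call in single mutants was lost without single-mutant replicate 2 (0.0605) or wild-type replicate 1 (0.0566), and that in double mutants without any double-mutant library or wild-type replicate 1 or 2 (0.0558 to 0.133).

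rpl7 itself, which lies near the 5S RNA, had 969 ± 16.7 CPM in single mutants, 968 ± 13.3 CPM in double mutants and 1111 ± 113 CPM in wild type (SD, n = 3 each). Both mutants gave a log2 fold change of -0.20 (adjusted p = 0.0299 in single mutants and 0.0367 in double mutants), and the call was lost in 13 and 14 of 19 alternatives, with adjusted p up to 0.235. The ranges of single mutants and wild type overlap for this gene, since wild-type replicate 3 had 982 CPM. rpl9, whose protein lies near the loop of ribosomal RNA that binds elongation factors, had 36.2, 33.8 and 39.3 CPM in single mutants, 37.2, 35.9 and 39.2 CPM in double mutants and 44.7, 49.2 and 41.7 CPM in wild type, so every mutant library was below every wild-type library. Its log2 fold changes were -0.31 (adjusted p = 0.0113) and -0.27 (adjusted p = 0.0290). Leaving out single-mutant replicate 2 (0.0929) or wild-type replicate 2 (0.0643) ended the single-mutant call, and leaving out any double-mutant library or wild-type replicate 1 or 2 ended the double-mutant call (0.0699 to 0.152). The double-mutant call was also lost with DESeq2 (0.0587), with no filter on low counts (0.0502) and when scaled to the summed ribosomal protein counts (0.104), so in 8 of 19 alternatives in all. Among the 26 rows of this group without a call were rpl3, which reaches towards the peptidyl transferase centre (log2 fold change -0.09 in single mutants and -0.10 in double mutants), and rpl10, which joins late in assembly (-0.07 and -0.11).

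None of the 7 exit tunnel rows tested was called in the main edgeR fit, with DESeq2 or with limma-voom. In the main fit 2 of the 7 in single mutants and 3 in double mutants had an unadjusted p under 0.05. Of all 21694 genes tested, 10786 in single mutants and 9247 in double mutants did so. rpl39, at the narrow part of the tunnel, had 422, 414 and 430.3 CPM in single mutants, 432, 419.9 and 419.8 CPM in double mutants and 418, 387 and 317 CPM in wild type, with a log2 fold change of 0.18 in double mutants (edgeR adjusted p = 0.105). rpl35, at the tunnel's opening, had 921, 941 and 952 CPM in single mutants, 940.5, 937 and 941 CPM in double mutants and 909.8, 869 and 769 CPM in wild type. Its mutant libraries were all above its wild-type libraries, and its log2 fold changes of 0.14 and 0.15 did not pass (adjusted p = 0.0848 and 0.0943). Without wild-type replicate 1, rpl35, rpl39 and rpl31 were called higher in both mutants, and without wild-type replicate 3, rpl17 and rpl19 were called lower in both. In single mutants rpl35 was also called without ribosomal protein rows in the TMM factors, with no filter and with a stricter filter. rpl39 was called there with no filter and when scaled to the summed ribosomal protein counts. That scaling called both genes in double mutants, as did a fit of only the 6 libraries compared for rpl35. rpl17 was called in double mutants without single-mutant replicate 1. rpl17, also at the opening, had log2 fold changes of -0.11 and -0.17 (adjusted p = 0.173 and 0.0554). The proteins that carry 5S RNA into the large subunit, which can also bind the p53 ligase MDM2, come from rpl5a, rpl5b and rpl11. None of these 3 rows was called by the 3 tools. At an unadjusted p under 0.05 there were 0 in single mutants and 1 in double mutants, against the all-gene counts given above. Without wild-type replicate 3, rpl5a was called lower in both mutants and rpl5b in double mutants. Without wild-type replicate 1, rpl11 was called higher in single mutants. Log2 fold changes in single mutants were -0.11 for rpl5a, -0.06 for rpl5b and 0.13 for rpl11. In double mutants they were -0.09 for rpl5a, -0.14 for rpl5b and 0.10 for rpl11. Of these genes rpl11 spread widest, with 843, 743 and 806 CPM in single mutants, 768, 801 and 773 CPM in double mutants and 837, 755 and 589 CPM in wild type.

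Of 14 rows for the head of the small subunit, 1 rose and 2 fell in each mutant. That is 21.4% called, against 42% of all tested genes in single mutants and 32.2% in double mutants. The gene that rose was rps29, which encodes a small zinc-binding protein. It had 400.4, 393 and 411 CPM in single mutants, 391, 397 and 385 CPM in double mutants and 355, 335 and 296 CPM in wild type. The mutant libraries were all above the wild-type libraries, and the log2 fold changes were 0.29 (SE 0.07, edgeR adjusted p = 0.00343) and 0.25 (SE 0.07, adjusted p = 0.0112). rps28, at the channel where mRNA leaves, had 222, 219 and 228 CPM in single mutants, 239.9, 244 and 225 CPM in double mutants and 303, 296 and 258 CPM in wild type, with the mutants below wild type throughout. Its log2 fold changes were -0.36 (adjusted p = 0.000979) and -0.27 (adjusted p = 0.00848), and the second call was lost without double-mutant replicate 3 (0.0827) or wild-type replicate 1 (0.0621). rps25, which some viral RNAs need to start translation in yeast and mammalian cells, had 529, 539.6 and 560.0 CPM in single mutants, 543, 539.6 and 565 CPM in double mutants and 723, 713 and 592 CPM in wild type. It too was lower in all mutant libraries, with log2 fold changes of -0.32 (adjusted p = 0.00282) and -0.30 (adjusted p = 0.00561), and both calls held in all 19 alternatives. rps27a, which is made fused to ubiquitin, had log2 fold changes of -0.005 and -0.05, and rps19, the gene most often hit in Diamond-Blackfan anaemia, had 0.03 and 0.001, with no call.

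The body and platform of the small subunit held 21 rows, of which 2 rose and 3 fell in single mutants, and 1 rose and 3 fell in double mutants. That is 23.8% and 19.0% called, against 42% and 32.2% of all tested genes. rps15a, a protein of the body, had 737, 733 and 759 CPM in single mutants, 695, 739 and 707 CPM in double mutants and 679, 636 and 566 CPM in wild type. All mutant values exceed all wild-type values. The log2 fold changes were 0.25 (adjusted p = 0.00890) and 0.19 (adjusted p = 0.0455), and the second call was lost with the replicate number as a block (0.0587) and without any double-mutant library or wild-type replicate 2 or 3 (0.0566 to 0.134). rps27l, a relative of rps27 that p53 induces in human cells, was called in single mutants and not in double mutants, and the test between the mutants is given further on. It had 33.2, 27.4 and 30.9 CPM in single mutants, 24.3, 23.0 and 21.5 CPM in double mutants and 21.9, 23.8 and 19.5 CPM in wild type. Single mutants lie above both other genotypes, while double mutants overlap wild type, and the log2 fold changes were 0.49 (SE 0.10, adjusted p = 0.00138) and 0.08 (SE 0.10, adjusted p = 0.599).

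rps26, on the platform where mRNA leaves, had 119.6, 118 and 126 CPM in single mutants, 124, 128 and 129 CPM in double mutants and 169.8, 158 and 132 CPM in wild type. Mutants were below wild type in every library, with log2 fold changes of -0.34 (adjusted p = 0.00404) and -0.27 (adjusted p = 0.02001). The single-mutant call was lost without wild-type replicate 1 (0.0512), and the double-mutant call without any double-mutant library or wild-type replicate 1 or 2 (0.0731 to 0.157). rps2, at the entry of the mRNA channel, had 2004, 1854 and 1986 CPM in single mutants, 1891, 1920.4 and 1915 CPM in double mutants and 2466, 2349.6 and 1985 CPM in wild type, so single mutants overlap wild type. Its log2 fold changes were -0.22 (adjusted p = 0.0221) and -0.25 (adjusted p = 0.0145), and the calls were lost in 11 and 5 of 19 alternatives (adjusted p up to 0.200 and 0.106). rps6, the substrate of the S6 kinases downstream of mTOR, had 1524 ± 42.7 CPM in single mutants, 1499 ± 11.7 CPM in double mutants and 1697 ± 109.7 CPM in wild type (SD, n = 3 each). Its log2 fold changes of -0.16 (adjusted p = 0.0446) and -0.18 (adjusted p = 0.0294) passed the threshold, but the calls were lost in 16 and 14 of 19 alternatives (adjusted p up to 0.280 and 0.157).

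**Figure D4:**
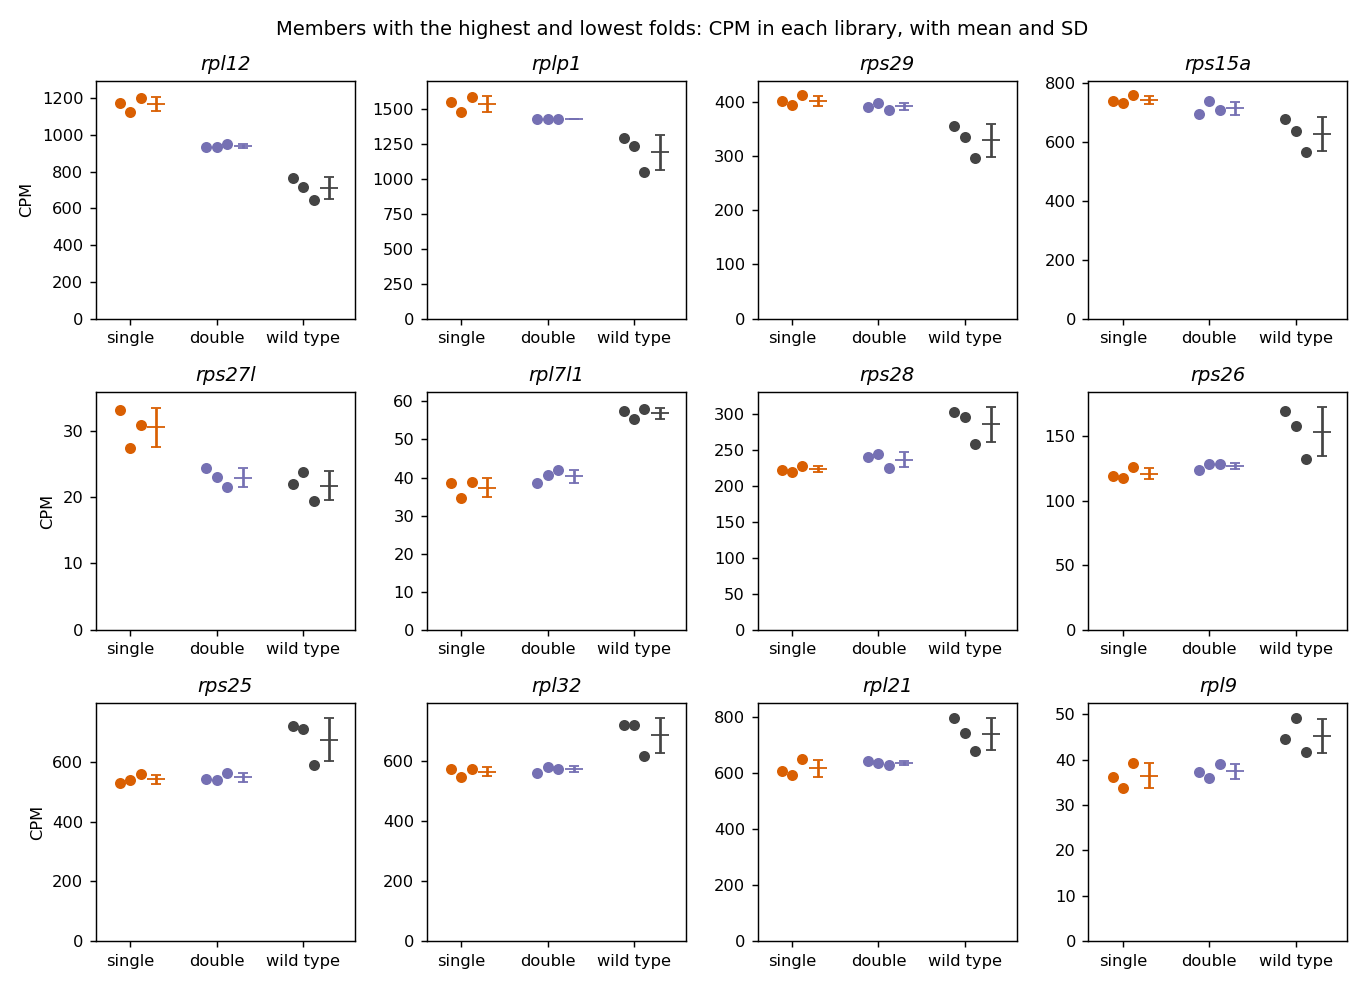
CPM (linear axes from 0) of 12 of the 15 ribosomal protein genes called in single mutants against wild type, leaving out rps2, rpl7 and rps6. rps8b, low in log2 fold change but not called, is not shown. Points are libraries and bars the mean ± SD of 3 libraries per genotype. Single mutants at 1126 to 1199 CPM of rpl12 lie above double mutants at 932 to 951 CPM, and these above wild type at 648 to 766 CPM. For rps27l the ranges of double mutants and wild type overlap.

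Between the mutant genotypes, which differ in the fam177a1b allele, 1 of 81 members was called, 1.23% of them, where 1.67% of all genes were called, 0.668% higher and 1% lower. This gene was rpl12, lower in double than in single mutants by a log2 fold change of -0.31 (SE 0.06, edgeR adjusted p = 0.0227). Its call was lost without single-mutant replicate 3 (0.0881) or any double-mutant library (0.0846 to 0.114). rps27l had the lowest value, -0.41 (SE 0.10), and did not pass (adjusted p = 0.0584, with a range of 0.0229 to 0.212 over 19 alternatives). Next came rpl29 with 353, 363 and 354 CPM in double mutants and 424, 389.8 and 422 CPM in single mutants (-0.21, adjusted p = 0.153). At the other end stood rpl27 with 0.13 (adjusted p = 0.424). The median over members was -0.03, against 0.005 for all genes. No member moved by more than 1.5 fold, against 8.23% of all genes. Ranges did not overlap for 18 members, 22.2% of them, against 20.2% of all genes, 3 of them higher and 15 lower in double mutants. The count of all genes called, 362, became 3860 without single-mutant replicate 1, when 2 members were called.

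Several members come as related rows, and the share of each in the summed counts of its pair does not depend on how the libraries are scaled. rps26 held 20.97%, 20.63% and 21.05% of the counts of rps26 and rps26l in single mutants, then 20.7%, 21.5% and 21.8% in double mutants, and 24.8%, 25.2% and 24.1% in wild type. No mutant library reached the wild-type range, and rps26l itself had log2 fold changes of -0.03 in single mutants and 0.001 in double mutants. rpl7l1 held 3.71% ± 0.219 of the counts of rpl7l1 and rpl7 in single mutants, 4.004% ± 0.116 in double mutants and 4.904% ± 0.575 in wild type (SD, n = 3 each), and the mutants did not overlap wild type. For rpl22l1 and rpl22, the share of rpl22l1 was 33.5% ± 0.236 in single mutants, 33.1% ± 0.712 in double mutants and 31.8% ± 0.216 in wild type. Every mutant library was above every wild-type library, while neither gene was called. rps27l held 5.496% ± 0.651 of the counts of rps27l and rps27.1 in single mutants, against 4.195% ± 0.251 in double mutants and 4.25% ± 0.250 in wild type. Shares of rplp2l with rplp2 were 58.7% ± 0.883 in single mutants, 56.5% ± 0.482 in double mutants and 58.6% ± 0.925 in wild type, with double mutants below both other genotypes. For rps27.2 with rps27.1 the share was 37.6% ± 0.890 in single mutants, 36.8% ± 0.964 in double mutants and 36.6% ± 0.265 in wild type, where single mutants lay just above wild type and double mutants overlapped it. The pairs rpl5a with rpl5b and rps8b with rps8a had shares that overlapped between each mutant and wild type. rps8b, with 4.50 to 7.22 CPM over all libraries, contributed under 1% of its pair. These shares are described and were not tested, and reads shared by near-identical rows could be split between them.

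**Figure D5:**
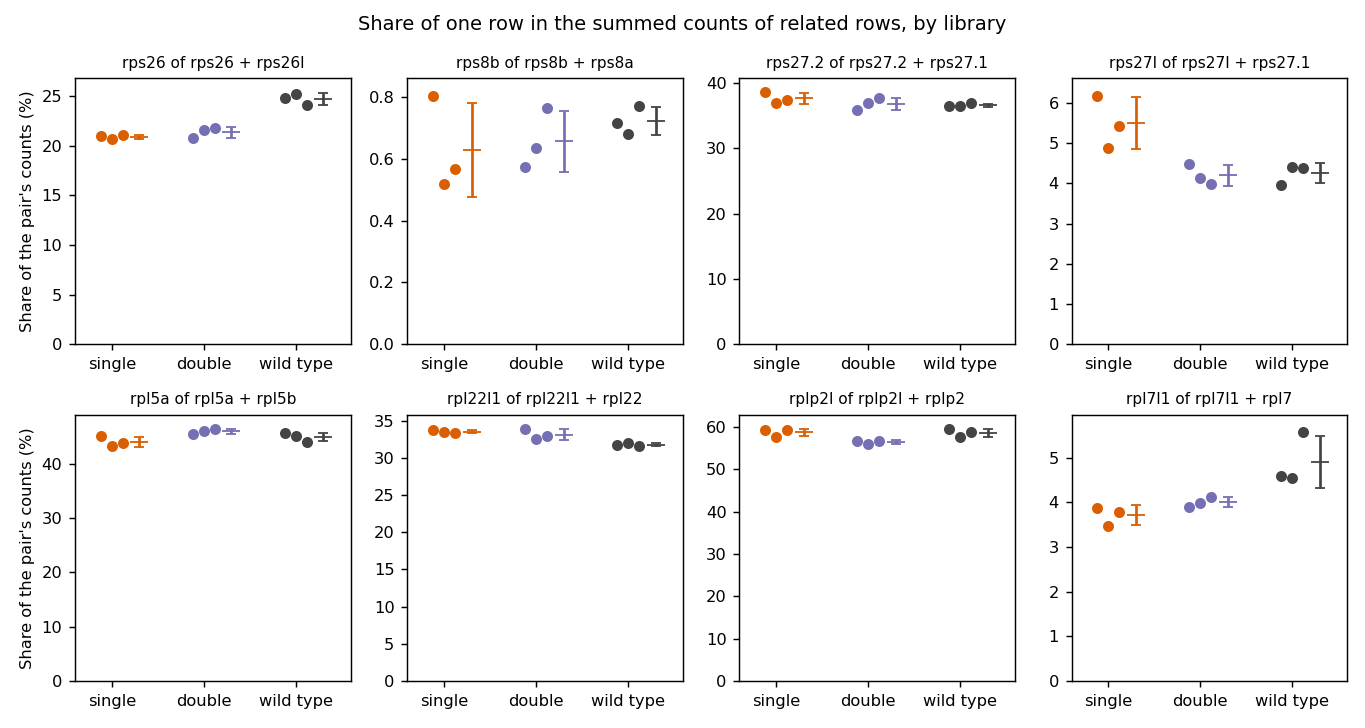
Share (%, axes from 0) of a row in the summed counts of that row and a related row, for 8 pairs of ribosomal protein genes. Points are libraries and bars the mean ± SD of 3 libraries per genotype. The share of rps26 lies between 20.6% and 21.8% in the mutants and between 24.1% and 25.2% in wild type.

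The name rule leaves out cytosolic ribosomal proteins with other names. Of 4 such rows tested from a list, 1 fell in each mutant. That is 25% of them, where 22.6% of all tested genes were lower in single mutants and 18% in double mutants. The row that fell was faub, a minor copy of the gene for ribosomal protein S30 and its ubiquitin-like partner. It had 8.78 ± 1.45 CPM in single mutants, 9.83 ± 0.457 CPM in double mutants and 15.0 ± 2.72 CPM in wild type (log2 fold change -0.77 and -0.60, edgeR adjusted p = 0.000818 and 0.00571). The main copy faua had -0.13 and -0.18 and rack1, the scaffold protein on the small subunit, had -0.01 and -0.06, with no call. With 3 rows added after their values were seen, 7 further rows in all, the counts became 17 higher or lower of 88 in single mutants and 15 in double mutants.

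Genes that work with the ribosome were set beside its proteins, as counts of called genes. Each is to be read against the 42% of all tested genes called in single mutants (19.5% higher and 22.6% lower) and the 32.2% in double mutants (14.2% higher and 18% lower). Of 15 genes tested from a list of translation elongation factors, 2 rose and 4 fell in single mutants, and 2 rose and 3 fell in double mutants. At 40% and 33.3% this is near those shares. The genes that fell include eef1e1 (-0.65 and -0.52), whose place in this list rests on its symbol. eef2b, the main row for the factor that moves the ribosome along the mRNA, rose to 6465 ± 217 CPM in single mutants and 6178 ± 95.5 CPM in double mutants, against 5505 ± 207 CPM in wild type (log2 fold change 0.23 and 0.17). Its scarce relative eef2a.1 fell (-0.87 and -0.92). Of 51 initiation factors, 3 rose and 24 fell in single mutants, and 2 rose and 23 fell in double mutants, 47.1% and 45.1% lower, with median log2 fold changes of -0.17 and -0.16. The cap-binding protein gene eif4e1c had 37.8, 27.3 and 28.0 CPM in single mutants, 39.6, 39.6 and 38.3 CPM in double mutants and 83.0, 85.6 and 77.8 CPM in wild type (-1.40 and -1.07). eif4a1a, the helicase that unwinds mRNA leaders, fell to 271 ± 29.8 CPM in single mutants and 287 ± 5.59 CPM in double mutants, against 496 ± 16.0 CPM in wild type (-0.87 and -0.79). Of 32 other mRNAs known in mammals to carry a TOP tract, some of which are also in the lists above, 5 rose and 9 fell in single mutants, and 3 rose and 8 fell in double mutants, and the 43.8% and 34.4% called are near the shares of all genes. Among them npm1a, the nucleolar protein nucleophosmin, fell (-0.86 and -0.60) and pabpc1b, which binds poly(A) tails, rose (0.40 and 0.42).

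Of 34 genes for TOR signalling and the control of ribosomal protein mRNAs, 10 rose and 8 fell in single mutants, and 8 rose and 7 fell in double mutants, 52.9% and 44.1% called against 42% and 32.2% of all genes. eif4ebp3, an inhibitor of cap-dependent initiation, had 39.5, 36.0 and 39.2 CPM in single mutants, 32.9, 28.5 and 36.0 CPM in double mutants and 13.9, 14.8 and 9.04 CPM in wild type (1.61 and 1.37). castor2, a relative of the arginine sensor CASTOR1, rose (1.18 and 0.95), as did akt1s1, which encodes the TORC1 inhibitor PRAS40 (0.66 and 0.47). rps6kb1b, an S6 kinase, fell (-0.65 and -0.44). larp1, chosen for mention after its values were seen because its protein binds TOP tracts, fell to 38.1 ± 6.57 CPM in single mutants and 49.4 ± 2.69 CPM in double mutants, against 88.0 ± 16.7 CPM in wild type (-1.21 and -0.83, edgeR adjusted p = 4.82e-05 and 0.000879). A further list of 18 tested genes mixed chaperones of single ribosomal proteins, ribosome quality control factors and ribosome assembly factors such as rrs1 and rpf2. Of these, 1 rose and 10 fell in single mutants, and 1 rose and 8 fell in double mutants. That is 55.6% and 44.4% lower, against 22.6% and 18% of all genes. rrs1, which in yeast brings the 5S particle into the new large subunit, had 21.6, 13.3 and 14.1 CPM in single mutants, 24.6, 21.9 and 21.6 CPM in double mutants and 51.3, 52.7 and 52.2 CPM in wild type (-1.67 and -1.20), and its partner rpf2 fell too (-0.76 and -0.38). gcn1, which senses collided ribosomes, was the gene that rose (0.62 and 0.54).

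The list for the 5S particle's link to p53 shares rrs1 and rpf2 with the list above. Of its 7 genes tested, 2 rose and 3 fell in single mutants, and 3 rose and 3 fell in double mutants. These stand against 42% and 32.2% of all genes called. mdm2, the ligase that marks p53 for degradation and itself a p53 target, had 39.0 ± 1.83 CPM in single mutants, 26.8 ± 0.240 CPM in double mutants and 20.4 ± 2.07 CPM in wild type (SD, n = 3 each). The 3 genotypes do not overlap, with log2 fold changes of 0.94 in single mutants and 0.40 in double mutants over wild type (edgeR adjusted p = 2.21e-06 and 0.00416) and of -0.54 in double over single mutants (adjusted p = 0.00654). nop53, a nucleolar partner of the 5S particle, rose (0.53 and 0.46). In single mutants mdm4 fell (-0.58, edgeR adjusted p = 8.16e-05). The highest log2 fold change of the list in double mutants, 0.97, belonged to neither mdm2 nor nop53. Activity of p53 was not tested.

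Markers of tissues that could shift in a whole larva were read the same way, and each list was detected in every library. Of 17 genes of dividing cells, 16 fell in single mutants and 14 in double mutants, and none rose, where 22.6% and 18% of all genes were lower. Their summed level was 1011 to 1442 CPM in single mutants, 1423 to 1467 CPM in double mutants and 2145 to 2301 CPM in wild type. ndc80, a kinetochore protein, had log2 fold changes of -1.07 and -0.79. Of 18 genes of the exocrine pancreas, rich in ribosomes for enzyme secretion, 6 rose and 3 fell in single mutants, and 7 rose in double mutants with none lower. That is 33.3% and 38.9% higher, against 19.5% and 14.2% of all genes, and 50% and 38.9% called in either direction, against 42% and 32.2%. Their summed level was 18140 to 18251 CPM in single mutants, 17932 to 19006 CPM in double mutants and 16308 to 17596 CPM in wild type. Of 19 skeletal muscle genes, 7 rose and 1 fell in single mutants, and 4 rose and 1 fell in double mutants. The 42.1% and 26.3% called are near or below the 42% and 32.2% of all genes, and the 36.8% and 21.1% higher stand against 19.5% and 14.2%. Summed muscle levels were 74903 to 85613 CPM in single mutants, 74142 to 78840 CPM in double mutants and 67043 to 73366 CPM in wild type. The part of these tissues in the ribosomal protein results was not tested. Rows of structural RNAs differed between libraries as well, with the RNA of the signal recognition particle at 5.41%, 5.06% and 4.79% of counts in single mutants, 6.98%, 5.98% and 6.19% in double mutants and 4.603%, 4.796% and 3.83% in wild type. Its double mutants were all above wild type, while single mutants overlapped it. Rows named U with a number or SNOR were lower in mutants, at 0.00898% ± 0.000434 in single mutants, 0.0144% ± 0.00275 in double mutants and 0.0421% ± 0.00842 in wild type. These shares were not tested. Over the counts left without such rows, the ribosomal protein share was 6.69% ± 0.200 in single mutants, 6.69% ± 0.00703 in double mutants and 6.905% ± 0.566 in wild type.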

How the data were processed

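Per the labels' protocols, total RNA of pooled larvae was depleted of ribosomal RNA and sequenced. The authors deposited raw counts per gene name, with a length in bases. Tools named in the submitters' processing notes are cutadapt, STAR, featureCounts and DESeq2, with the build GRCz11. Neither versions nor the handling of strand and of multi-mapping reads is stated there. All 9 sample columns matched a label (the AB columns as wild type) and 0 were left unused.

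Rows were kept with filterByExpr (21694 of 28802) and tested with edgeR 4.0.16 (R 4.3.3): TMM factors, robust quasi-likelihood F test, all 9 libraries in 1 fit with genotype as the only factor, 6 residual degrees of freedom, Benjamini-Hochberg adjustment over all tested rows of a comparison and a call at an adjusted p under 0.05. The common biological coefficient of variation between libraries was 11.4%, and the median for ribosomal protein genes was 8.69%. The fit shared its estimate of spread over the 3 genotypes, so each test draws on all of them. Members spread unequally, with a median SD of log2 CPM of 0.141 in wild type, 0.0453 in single mutants and 0.0209 in double mutants. CPM values use TMM-scaled totals. Shares of counts use unscaled totals and were compared with an exact permutation test. The steps were tested on simulated data. Limits from 3 counts cover counting error only. Alternatives used limma 3.58.1 and DESeq2 1.42.0, other scalings and filters, a replicate block, and each library left out. DESeq2 was run by the authors as well, but no result of theirs was used.

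The members and lists were chosen with earlier results of these data known. Most named genes are called members, up to 10 members at either end of each comparison, the 5 highest and 5 lowest per length, related rows, members that failed the filter, and up to 4 genes with the smallest adjusted p per list. Some members outside these rules, such as rpl3, rpl17 and rps19, are named as well. Assignment of members to roles and pairs was made after their values were seen. No sequence was used here.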

Additional observations from a re-analysis of the deposited data

Results flagged for a closer look

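The response of rpl12 differed between the mutant genotypes by a direct test. It was lower in double than in single mutants, with a log2 fold change of -0.31 (edgeR adjusted p = 0.0227), on 932 to 951 CPM in the 3 double-mutant libraries and 1126 to 1199 CPM in the 3 single-mutant libraries. Over 19 alternatives the log2 fold change lay between -0.35 and -0.28 and the adjusted p between 0.00506 and 0.114, and 15 kept the call. Other values were not flagged by a gap between libraries, because groups of 3 were not examined for it.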

How the results depend on the processing

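Direction was checked for fam177a1 and the members called in the main fit, and none reversed past a threshold under any alternative run. Counts, medians and shares were checked for size only, and 23 such values moved. A count moved if it changed by more than 1.5 fold, a median or share if by at least the SD between libraries. The balance of higher and lower calls did shift with the wild-type library left out, as given above. Of 15 calls in single mutants against wild type, 9 held in all 19 alternatives (5 higher, 4 lower), as did 5 of 14 in double mutants against wild type. Settings varied the scaling, filter, tool and sample set, or added the 7 further rows. Over these, 12 to 17 rows were called in single mutants and 11 to 15 in double mutants. The 17 includes added rows that are not members. Leaving out each library gave 11 to 28 members in single mutants and 6 to 27 in double mutants, with member medians from -0.08 to 0.09 and from -0.10 to 0.04. All genes called in those fits numbered 7327 to 10363 in single mutants and 5230 to 8697 in double mutants. Between the mutants, 1 member was called in the main fit, 2 with DESeq2 and 2 with no filter on low counts, and 0 to 2 with a library left out. All genes called between the mutants numbered 362, then 862 with DESeq2, 184 with only the 6 libraries compared and 108 to 3860 with a library left out, and the cause was not tested. Members called in single mutants split into 7 higher and 7 lower without ribosomal protein rows in the scaling or with a stricter filter, and 8 and 8 with no filter. Scaled to the summed ribosomal protein counts, an alternative chosen after seeing the data, they split into 6 and 10, and in double mutants into 6 and 7. Deviations from the genotype mean in same-numbered libraries had correlations of -0.030 to 0.083, none over 0.1. Differently numbered libraries were not compared, so these values cannot settle whether the numbers pair the samples. With the replicate block, 14 members were called in single mutants, 11 in double mutants and 1 between the mutants. The row of rpl26 was too low to test and that of rps8b was low, and the part of depth in this was not tested.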
